A study of Mus musculus with 8 samples.

Results

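Endothelins, adrenomedullin and the vascular endothelial growth factors (VEGFs) are vasoactive peptides and vascular or lymphatic growth factors that keratinocytes can secrete. The genes Edn1, Edn2, Ece1, Adm, Vegfa, Vegfb, Vegfc, Vegfd and Pgf were followed in cultured mouse keratinocytes with and without type I keratins. The 9 genes were taken by symbol from the array annotation, of 16593 gene symbols in all, which gave 12 probes among 25697. They were proposed with the comparison of knockout and wild-type arrays already known, Edn2 and Vegfd being among the genes that passed there. Their differences between the genotypes are therefore given as a description, without p-values.

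The knockout (KO) arrays held cells of the C57Bl6 strain labelled as type I keratin KO, and the wild-type arrays held cells of the same strain. All cells were isolated from embryonic skin at E18.5 and grown to confluence before lysis, and the labels name no further treatment. Each genotype had 4 Illumina arrays, numbered 1, 2, 3 and 1.1. The labels do not say how many embryos were used, whether cells were pooled, or whether replicates were separate cultures, so the spread between them may be technical.

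Endothelins are made as long precursors that endothelin converting enzymes, such as the product of Ece1, cut to short peptides. Endothelins act on the receptors Ednra and Ednrb, and in skin they act on vessels, on sensory nerves and, through Ednrb, on melanocytes. Adrenomedullin, the product of Adm, is a vasodilator peptide that signals through Calcrl with a Ramp protein. Vegfa drives blood vessel growth through Kdr and Flt1, Vegfb and placental growth factor (Pgf) bind Flt1, and Vegfc and Vegfd act on lymphatic vessels through Flt4. The epidermis has no vessels of its own and is known to supply Vegfa to those of the dermis. Vegfa and Adm are also textbook targets of the hypoxia-inducible factors (HIF).

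The promoters of the 3 members with the largest differences are shown, because Edn2 and Adm read higher and Vegfd lower in KO cells. The sequences are the 250 bases before the RefSeq start site on build GRCm38.p6, 5′ to 3′ on the strand of the gene. Capitals mark the HIF core, searched as ACGTG or GCGTG on both strands.
Edn2, chr4:120160956-120161205, plus strand: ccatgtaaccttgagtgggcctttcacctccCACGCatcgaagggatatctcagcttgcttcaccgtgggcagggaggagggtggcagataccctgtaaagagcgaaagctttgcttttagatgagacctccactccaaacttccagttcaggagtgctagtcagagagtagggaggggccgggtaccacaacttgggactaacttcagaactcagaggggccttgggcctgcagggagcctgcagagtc
Adm, chr7:110627407-110627656, plus strand: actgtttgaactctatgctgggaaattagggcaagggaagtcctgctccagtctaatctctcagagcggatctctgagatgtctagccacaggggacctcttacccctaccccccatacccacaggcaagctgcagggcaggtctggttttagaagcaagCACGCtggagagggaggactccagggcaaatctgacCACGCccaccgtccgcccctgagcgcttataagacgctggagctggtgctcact
Vegfd, chrX:164373272-164373521, plus strand: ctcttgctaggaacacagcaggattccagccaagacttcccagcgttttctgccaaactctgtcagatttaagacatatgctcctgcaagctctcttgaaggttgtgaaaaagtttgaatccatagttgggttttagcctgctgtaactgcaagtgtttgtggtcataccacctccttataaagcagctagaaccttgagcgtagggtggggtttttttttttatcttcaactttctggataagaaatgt

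The Edn2 window held 1 HIF core, which began 219 bases before the start, and the Adm window held 2, which began 90 and 54 bases before it. The Vegfd window held 0. All 9 members had a promoter in the RefSeq table, with 14 windows because some genes have several starts, and 8 of the 14 held a HIF core, overlapping matches being counted separately. Of 32536 promoter windows of the same length, 38.8% held one. The AP-1 motif TGANTCA, the site of Jun and Fos proteins, was in 0 of the 14 windows and in 6.73% of all windows. Of the 2 Vegfa windows, both on the minus strand, that at chr17:46025164-46025413 held 2 HIF cores. It precedes a start site that lies downstream of the other. The upstream window, at chr17:46032378-46032627, held 0. These matches describe letters and not binding, and the arrays did not measure the promoters.

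The deposited values were intensities on a linear scale, already normalized between arrays, and intensities up to a limit of 6.30 were taken as background. Wild-type arrays 1 and 1.1 were close, and KO array 1.1 was as close to KO array 3, with SDs of their log2 differences of 0.205 and 0.213 against 0.418 to 0.640 for the other pairs within a genotype. The labels call KO 1.1 a second replica of KO 1, but those arrays had an SD of 0.640. Each close pair was averaged and counted as 1, which left 3 replicates per genotype, and results that depend on this are named. Krt14 read -2.9 to 9.28 on KO arrays and 17836 to 19131 on wild-type arrays, and Krt5 7244 to 10067 and 7933 to 9867. All 11 keratinocyte markers with a probe were above background on all 8 arrays. Of 9 blood endothelial markers with a probe, 4 were above background on at least 3 arrays and 0 on all 8, and the defining markers Cdh5 and Tie1 on 0. The angiopoietin receptor gene Tek was there on 6 arrays, with 8.8 to 21 on KO and 3.4 to 10.6 on wild-type arrays. Robo4 was there on 5, with 6.3 to 11.8 and 0.4 to 6.4. Pecam1 and Plvap were each there on 3. Pecam1 read 0.3 to 10.5 on KO and 3.1 to 14.7 on wild-type arrays, and Plvap 5 to 7.2 and 0.2 to 8.9. The 9 markers summed to 26.7 to 66.0 on KO and 13.1 to 35.4 on wild-type arrays. Of 4 lymphatic endothelial markers 0 were above background on 3 arrays, Lyve1 and Flt4 being there on 0, with sums of 0 to 11.5 and 3.5 to 13.1. Of 8 leukocyte markers 1, Coro1a, was above background on at least 3 arrays, with Ptprc on 0.

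**Figure D1:**
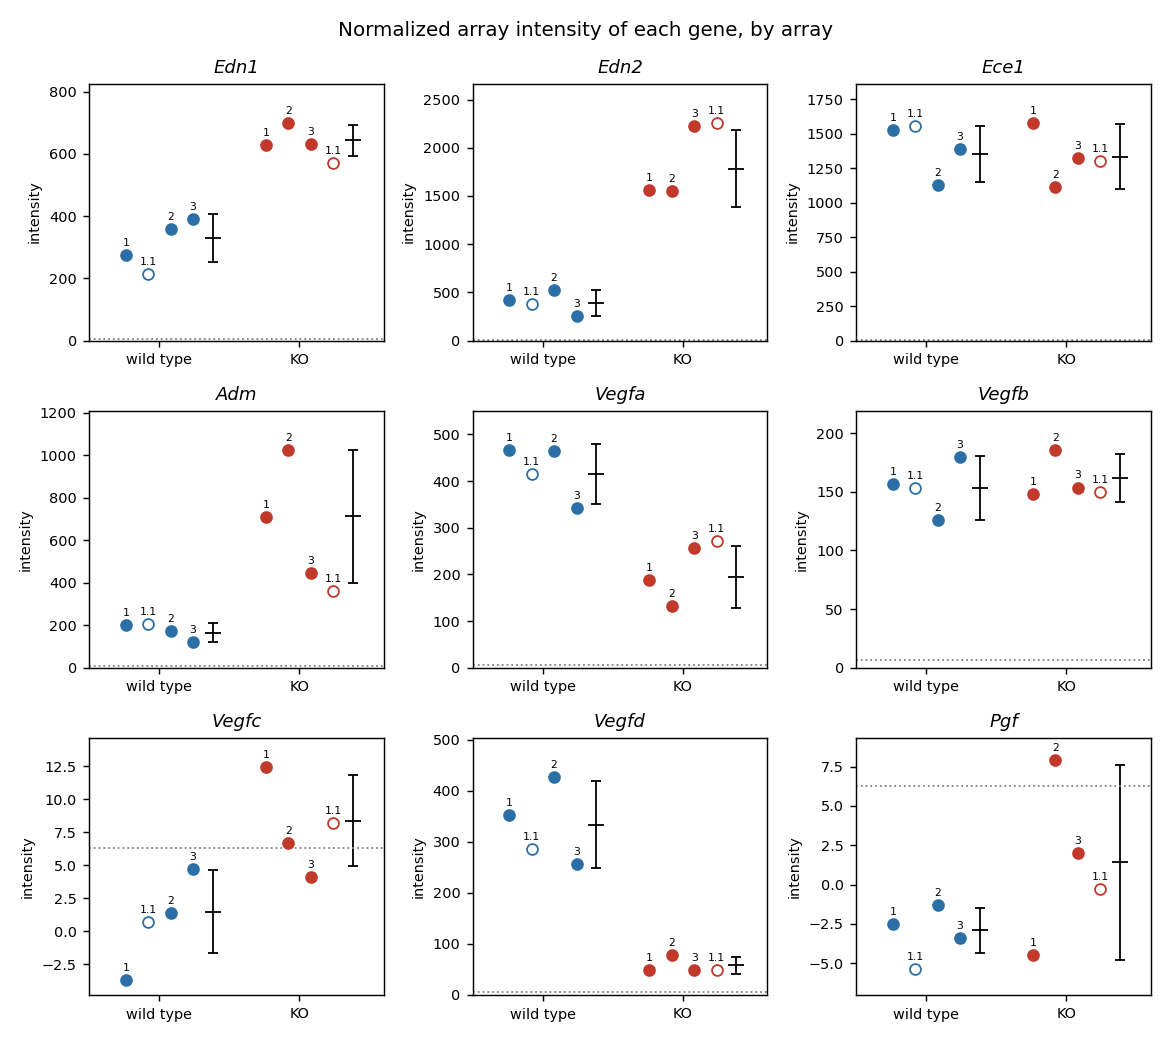
Normalized intensity (linear scale, y axis of each panel its own) of the probe used for each gene on the 4 wild-type (blue) and 4 KO (red) arrays, numbered as in the labels, with array 1.1 as an open circle. Black bars are the mean ± SD of 3 replicates and the dotted line is the background limit of 6.30. Edn1, Edn2 and Adm lie higher on every KO array, Vegfa and Vegfd lower, Ece1 and Vegfb overlap, and Vegfc and Pgf lie near or below the limit.

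Among the endothelins, Edn2 differed most. Its intensity was 1562, 1548, 2227 and 2259 on KO arrays 1, 2, 3 and 1.1. On wild-type arrays 1, 2, 3 and 1.1 it was 421, 519, 251 and 376. Every KO array read above every wild-type array, and the lowest KO value was well clear of the highest wild-type value. The 3 KO replicates averaged 1785 ± 397 (SD) and the 3 wild-type replicates 390 ± 134 (SD). Edn2 was 4.55-fold higher in KO, a log2 difference of 2.19 ± 0.28 (SE). All differences are on the scale of log2 of intensity plus 16, which understates those of dim genes. In cultured cells measured in bulk, more RNA per cell and more cells that express a gene cannot be told apart.

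Edn1, which encodes the most studied endothelin, was higher on the KO arrays by a smaller amount. It read 629, 700, 632 and 572 on KO arrays 1, 2, 3 and 1.1 and 276, 357, 391 and 213 on wild-type arrays 1, 2, 3 and 1.1. The lowest KO array again lay above the highest wild-type array. The replicates averaged 643 ± 51.0 in KO and 330 ± 77.7 in wild type (SD over 3). On the log2 scale KO was higher by 0.95 ± 0.20 (SE). Edn1 varied less among KO replicates than among wild-type replicates, with SDs of 0.11 and 0.35 on the log2 scale.

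Ece1, which encodes an endothelin converting enzyme, differed little between the genotypes by its brighter probe. This probe read 1578, 1110, 1324 and 1299 on KO arrays 1, 2, 3 and 1.1 and 1525, 1131, 1385 and 1554 on wild-type arrays 1, 2, 3 and 1.1. The genotypes overlapped throughout, with a log2 difference of -0.02 ± 0.19 (SE) and a 95% interval of -0.47 to 0.43. The dimmer probe of Ece1 gave a different picture, with 43.9 to 82.7 on KO arrays and 24.4 to 45.2 on wild-type arrays. Its log2 difference was 0.64 ± 0.23 (SE), so the probes of this gene disagree by more than either standard error, and the mean of both was 0.31.

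Adm read higher on every KO array, with the widest spread of the members tested. It read 710, 1025, 446 and 362 on KO arrays 1, 2, 3 and 1.1 and 203, 173, 119 and 205 on wild-type arrays 1, 2, 3 and 1.1. KO replicate 2 was highest, and KO array 3 with its close partner 1.1 lowest among KO arrays, yet still above the wild type. Over 3 replicates each, KO averaged 712 ± 312 and wild type 165 ± 43.2 (SD). Adm was 3.83-fold higher in KO, or 1.94 ± 0.35 (SE) in log2. The SD within genotypes was 0.53 on the log2 scale, larger than that of 91.5% of all genes tested, and Adm did not reach the threshold for a call.

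Vegfa, the main epidermal angiogenic factor, read lower on every KO array. It read 188, 132.5, 256 and 273 on KO arrays 1, 2, 3 and 1.1 and 467, 464, 342 and 416 on wild-type arrays 1, 2, 3 and 1.1. KO array 3 and array 1.1 lay closest to the wild type, and wild-type array 3 closest to the KO. Over 3 replicates each, KO averaged 195 ± 66.0 and wild type 416 ± 65.0 (SD). The log2 difference of -1.07 ± 0.25 (SE) did not reach the threshold for a call. A second probe read 45.1 to 71.0 on KO arrays and 61.0 to 99.4 on wild-type arrays, so that the genotypes overlapped, with a log2 difference of -0.47 ± 0.21 (SE). The third Vegfa probe was above background on 0 of the 8 arrays. The 2 measured probes had the same sign and the dimmer 1 the smaller difference.

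Vegfb, a relative of Vegfa, read 148, 186, 154 and 150 on KO arrays 1, 2, 3 and 1.1 and 156, 126, 179 and 153 on wild-type arrays 1, 2, 3 and 1.1. The genotypes overlapped, with a log2 difference of 0.08 ± 0.18 (SE) and a 95% interval of -0.33 to 0.49. Pgf exceeded the background limit on a single array, KO replicate 2 at 7.9, and was not tested.

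Vegfd, a lymphatic growth factor, differed by about as much as Edn2, in the other direction. It read 48.5, 77.3, 48.6 and 49.4 on KO arrays 1, 2, 3 and 1.1. On wild-type arrays 1, 2, 3 and 1.1 it read 353, 427, 258 and 285. It was above background on all 8 arrays, and the highest KO array lay far below the lowest wild-type array. Over 3 replicates each, KO averaged 58.3 ± 16.5 and wild type 334 ± 86.0 (SD). Vegfd was 4.69-fold lower in KO on the scale with the offset of 16, a log2 difference of -2.23 ± 0.24 (SE). The ratio of the mean intensities themselves, wild type over KO, was 5.73.

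Vegfc, the other lymphatic factor, was at the edge of detection. It read 12.4, 6.7, 4.1 and 8.2 on KO arrays 1, 2, 3 and 1.1 and -3.7, 1.4, 4.7 and 0.7 on wild-type arrays 1, 2, 3 and 1.1. The limit was passed by 3 of the 4 KO arrays and by 0 wild-type arrays, so it passed the filter on dim probes through the KO arrays alone. Set against the background limit, the KO mean was 1.09-fold higher, a value that leaves out the spread of the replicates. KO array 3, at 4.1, was itself below the limit, and the arrays of the genotypes overlapped. The log2 difference of 0.49 had a 95% interval of 0.04 to 0.93.

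**Figure D2:**
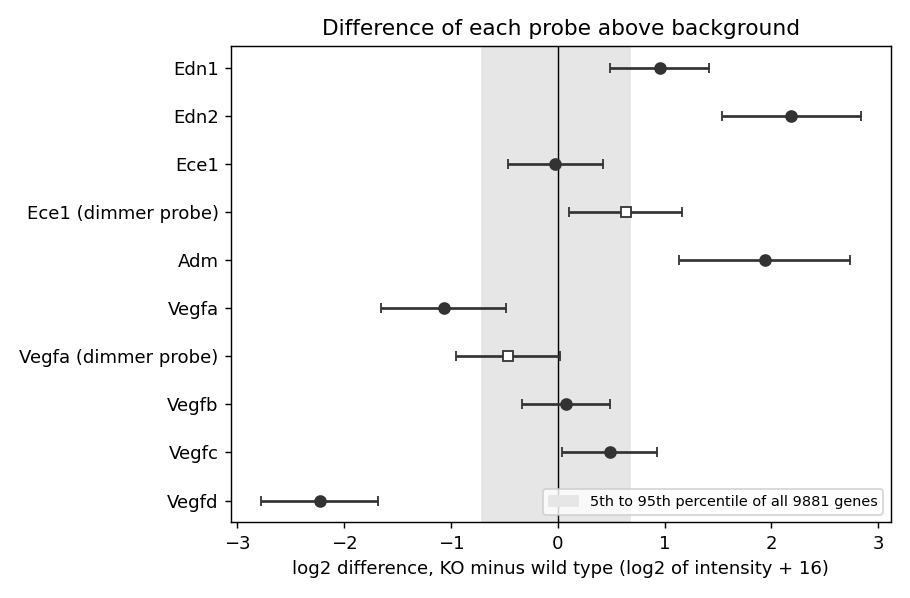
Log2 difference, KO minus wild type, of the 10 member probes that passed the filter on dim probes, with 95% intervals from the fit of all probes (n = 3 replicates per genotype). Filled circles are the probes used for each gene, open squares the dimmer probes of Ece1 and Vegfa, and the grey band runs from -0.71 to 0.68, the 5th to 95th percentile of all genes. The points of Edn1, Edn2, Adm, Vegfa and Vegfd lie outside the band.

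Of the 9 members, 8 passed the filter on dim probes and were tested among 9881 genes with limma. At an adjusted p under 0.05, 2 were called, Edn2 higher and Vegfd lower, against 0.708% of all genes tested. Since these genes were chosen with this contrast known, the count is not evidence about the group. The replicates of 6 of the 8 did not overlap between genotypes, beside 22.5% of all genes tested, and this count is no evidence either, for the same reason. The 6 include Vegfc, whose single arrays overlapped. The 8 differences had a median of 0.28 on the log2 scale, with 5 positive and 3 negative, beside a median of 0.02 for all genes tested. Edn1, Edn2, Adm and the dim Vegfc read higher in KO, Vegfa and Vegfd lower, and Ece1 and Vegfb near 0. Adm, with the next largest difference, lay just outside the call threshold.

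The calls of Edn2 and Vegfd were lost without some single replicates, where fewer of all genes were called too. Without KO replicate 1, wild-type replicate 1 or wild-type replicate 2, 0 members were called. Of all genes tested, 0.111%, 0.0506% and 0.081% were called in these fits, against 0.708% with all replicates. The log2 differences in them were 2.27, 2.23 and 2.41 for Edn2 and -2.14, -2.25 and -2.05 for Vegfd. Without KO replicate 2 only Vegfd was called, beside 0.0911% of all genes tested. Without KO replicate 3, 4 members were called, beside 2.64% of all genes tested. Vegfa and Adm were added there, with log2 differences of -1.30 and 2.29. Over 21 alternatives, which all reuse these arrays, the Edn2 log2 difference stayed between 1.91 and 2.41. That of Vegfd stayed between -2.44 and -1.69. With KO array 1.1 averaged with KO array 1, as labelled, 3 members were called, Adm being added. Of all genes tested, 2.64% were called with that averaging.

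The members differed in how far replicates of a genotype lay apart. On the log2 scale the KO replicates spanned 1.32 for Adm and 0.53 for Edn2, and the wild-type replicates 0.71 and 1.00. Edn2 had a larger SD within genotypes than 84.8% of all genes tested, and Vegfb than 38.9%.

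Vegfd is also made by fibroblasts, so fibroblast markers were set beside it. Of 11 such markers with a probe, 8 were above background on at least 3 arrays and 3 on all 8, while Col1a2 and Dpt were there on 0. Their summed intensity was 742.6, 433.3, 366.4 and 458.3 on KO arrays 1, 2, 3 and 1.1 and 672.4, 189.6, 1358 and 668.1 on wild-type arrays 1, 2, 3 and 1.1. The KO range lay within the wild-type range. The sum mixed unlike genes, since Thy1 gave 247.4 of the 433.3 on KO array 2 and Dcn 13.7, while Dcn gave 790.3 of the 1358 on wild-type array 3. The part of fibroblasts in the Vegfd values was not tested. The smooth muscle markers summed to 1547 to 2965 on KO and 706 to 3833 on wild-type arrays, nearly all of it Acta2, so these ranges overlapped too.

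**Figure D3:**
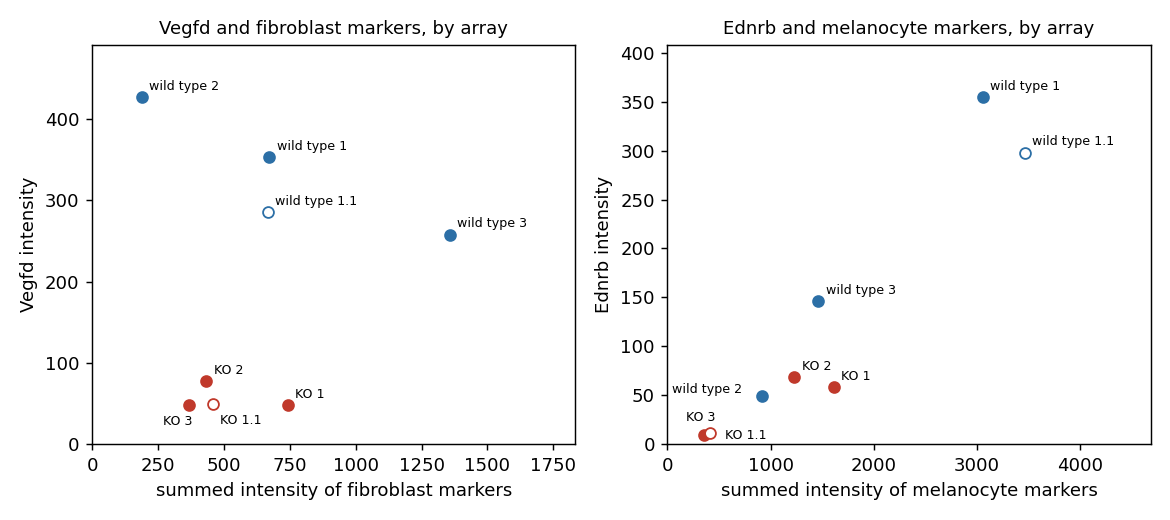
Left, Vegfd intensity against the summed intensity of 11 fibroblast markers, and right, Ednrb intensity against that of 6 melanocyte markers, 1 point per array (blue wild type, red KO, open circle array 1.1, linear axes). Vegfd is low on all KO arrays, at sums within the wild-type range. Ednrb and the melanocyte sum are highest on wild-type arrays 1 and 1.1, a close pair counted as 1 replicate. KO array 1 has a larger melanocyte sum than wild-type array 3 but a lower Ednrb value.

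The genes with the pattern most like that of Edn2 over the 6 replicates were Surf1, Prkcd, G6pc3, Fars2 and Xpo4, with Pearson correlations of 0.981 to 0.990. For Vegfd they were Wasf1, Tada1, Zc2hc1a, Robo1 and Tnfrsf18, with 0.991 to 0.995. Correlations above 0.95 were reached by 34 genes for Edn2 and 98 for Vegfd. All points share the genotype difference, so these values are a description. Of these genes Robo1, a guidance receptor, and Tnfrsf18, a member of the TNF receptor family, were called lower, and 0 of the 5 genes most like Edn2 were called.

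The other genes of these pathways were read from 5 lists, chosen by function, of 94 genes in all. Of these, 82 had a probe and 50 were tested. With limma's test 0 of the 50 passed over all genes, beside 0.708% of all genes tested. At an unadjusted p under 0.05 there were 16, or 32.0%, beside 17.1% of all genes tested. The lists were written with earlier results of these data known, so this share is a description and no evidence about the lists. Under the other settings between 0 and 10 of the 50 passed, the 10 with array weights, where 9.41% of all genes tested passed. Without KO replicate 3 there were 4, namely Flt1, Ccn2, Ccn1 and Ddit4, beside 2.64% of all genes tested. Without wild-type replicate 3 there were 3, namely Nrp1, Ptges and Ddit4, beside 0.789% of all genes tested.

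Among receptors and binding proteins, 7 of 12 with a probe were tested, with a median log2 difference of 0.18. Flt1, the receptor for Vegfa, Vegfb and Pgf, read 139, 252, 14.5 and 15.4 on KO arrays 1, 2, 3 and 1.1 and -2.3 to 4.9 on the wild-type arrays. The limit was passed on 4 of 4 KO arrays and 0 of 4 wild-type arrays, so Flt1 passed the filter on dim probes through the KO arrays alone. Of the 2 Flt1 probes only this 1 passed the filter. Set against the background limit, the KO mean was 4.87-fold higher, a value that leaves out the spread of the replicates. KO array 3 and its close partner were far below the other KO arrays. The log2 difference of 2.72 had a 95% interval of 1.05 to 4.39, and Flt1 did not pass (limma adjusted p = 0.117). Nrp1, a co-receptor for VEGFs and semaphorins, read 772, 640, 487 and 447 on KO arrays 1, 2, 3 and 1.1 and 88.4, 167, 352 and 87.9 on wild-type arrays 1, 2, 3 and 1.1. Its log2 difference was 1.72 ± 0.44 (SE, limma adjusted p = 0.115), with no overlap of arrays. The peptide receptor Calcrl and the lymphatic receptor Flt4 were above background on 0 of 8 arrays, and Kdr on 1. The blood endothelial markers summed to 46.4, 66.0, 26.7 and 43.2 on KO arrays 1, 2, 3 and 1.1 and to 30.2, 28.8, 35.4 and 13.1 on wild-type arrays 1, 2, 3 and 1.1. KO arrays 1, 2 and 1.1 lay above every wild-type array. KO array 3, counted with 1.1 as 1 replicate, lay below wild-type arrays 1, 2 and 3. Esam, above background on only 2 arrays, gave 21 of the 66.0 on KO array 2. Of the 4 markers tested, Tek and Robo4 differed by 0.44 and 0.35 on the log2 scale, Plvap by 0.15 and Pecam1 by -0.17. None of these 4 passed (limma adjusted p = 0.291, 0.332, 0.702 and 0.736). The part of endothelial cells in the Flt1 and Nrp1 values was not tested.

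Ednrb, named after its values were seen, read 58.4, 68.4, 9.4 and 11.3 on KO arrays 1, 2, 3 and 1.1 and 355, 49.0, 146.5 and 298 on wild-type arrays 1, 2, 3 and 1.1. The genotypes overlapped, and its log2 difference of -1.48 ± 0.66 (SE) did not pass (limma adjusted p = 0.308). Melanocytes carry this receptor, and the 6 melanocyte markers with a probe, all above background on at least 3 arrays, summed to 357 to 1614 on KO and 916 to 3469 on wild-type arrays. Their part in the Ednrb values was not tested.

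Among processing enzymes, 7 of 12 genes with a probe were tested, with a median log2 difference of 0.16. Ece2, a relative of Ece1, read 152.5 to 208 on KO arrays and 75.3 to 175.9 on wild-type arrays, with a log2 difference of 0.71 ± 0.28 (SE, limma adjusted p = 0.258). Plau, the urokinase protease, was dim, with 17.7 to 32.0 and 3.6 to 14.9, and differed by 0.66 ± 0.20 (SE, limma adjusted p = 0.154). The protease Furin, which cleaves many growth factor precursors, VEGF-C and VEGF-D among them, was named after its values were seen and differed by -0.15 ± 0.19 (SE). Adamts3 and Ccbe1, which activate VEGF-C, were above background on 0 of 8 arrays.

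Among other vasoactive mediators, 8 of 18 genes with a probe were tested, with a median log2 difference of 0.34. The largest differences were those of 2 genes that act in sequence to make prostaglandin E. Ptges, its synthase, read 518, 698, 587 and 563 on KO arrays 1, 2, 3 and 1.1 and 99.3, 158, 254 and 92.1 on wild-type arrays 1, 2, 3 and 1.1. Every KO array lay above every wild-type array, with a log2 difference of 1.81 ± 0.31 (SE, limma adjusted p = 0.0582). Ptgs2, the inducible cyclooxygenase, read 256 to 565 on KO arrays and 75.9 to 238 on wild-type arrays, a log2 difference of 1.42 ± 0.42 (SE, limma adjusted p = 0.152). The natriuretic peptide gene Nppb, named after its values were seen, read 770 in KO replicate 2 and 69.0 to 167.1 on the other KO arrays, against 33.4 to 226.1 in wild type.

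**Figure D4:**
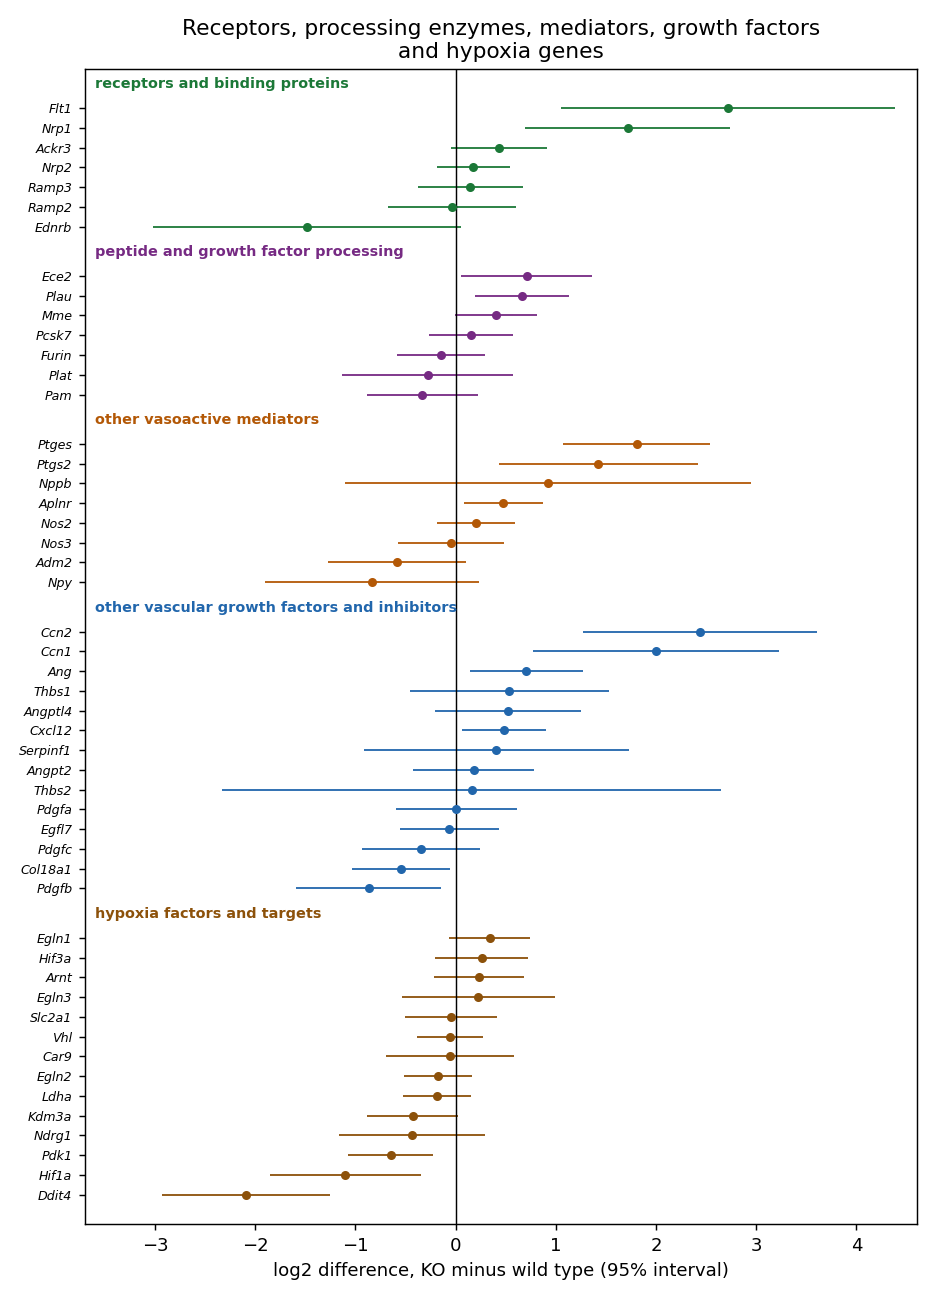
Log2 difference, KO minus wild type, with 95% intervals from the fit over all genes (n = 3 replicates per genotype), for the 50 tested genes of the 5 lists, 1 colour per list. None of the 50 passed limma's test over all genes. Flt1, Ccn2 and Ccn1 lie highest, and Ddit4 lowest.

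Among other vascular growth factors and inhibitors, 14 of 21 genes with a probe were tested, 10 of them positive, with a median of 0.29. The matricellular proteins Ccn2 and Ccn1 differed most. Ccn2 read 2623, 5026, 1738 and 1556 on KO arrays 1, 2, 3 and 1.1 and 496, 282, 884 and 507 on wild-type arrays 1, 2, 3 and 1.1, a log2 difference of 2.44 ± 0.50 (SE, limma adjusted p = 0.0789). Ccn1 differed by 2.00 ± 0.52 (SE, limma adjusted p = 0.117), with KO array 3 at 229 beside wild-type array 3 at 214. The fibroblast growth factor genes Fgf1 and Fgf2 and the angiopoietin Angpt1 were above background on 0 of 8 arrays.

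The hypoxia list held HIF genes and genes known to respond to low oxygen. Of 14 tested genes 4 were positive and 10 negative, with a median log2 difference of -0.12. The 4 positive genes, named after their values were seen, were Egln1, Hif3a, Arnt and Egln3. Their log2 differences were 0.34, 0.26, 0.23 and 0.23. Ddit4, an inhibitor of growth signalling induced by hypoxia and other stresses, read 77.2, 57.3, 94.8 and 101 on KO arrays 1, 2, 3 and 1.1 and 651, 365, 227 and 629 on wild-type arrays 1, 2, 3 and 1.1. Its log2 difference was -2.10 ± 0.36 (SE, limma adjusted p = 0.0554). Hif1a, which encodes the oxygen-regulated HIF subunit, read 69.6 to 152.9 on KO arrays and 180.3 to 363.1 on wild-type arrays, a difference of -1.10 ± 0.32 (SE, limma adjusted p = 0.146). Pdk1, a kinase that limits the entry of pyruvate into mitochondria, was the third gene of the list at an unadjusted p under 0.05, with a log2 difference of -0.65 ± 0.18 (SE, limma adjusted p = 0.140). Ndrg1 and Kdm3a both differed by -0.43, with limma adjusted p of 0.531 and 0.318. The glucose transporter gene Slc2a1 and the lactate dehydrogenase gene Ldha, which like Pdk1, Ndrg1 and Kdm3a were picked with their values known, had log2 differences of -0.04 ± 0.20 and -0.19 ± 0.15 (SE). Adm and Vegfa, both known HIF targets, read higher and lower in KO, and neither was called. The part of HIF in these values was not tested.

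**Figure D5:**
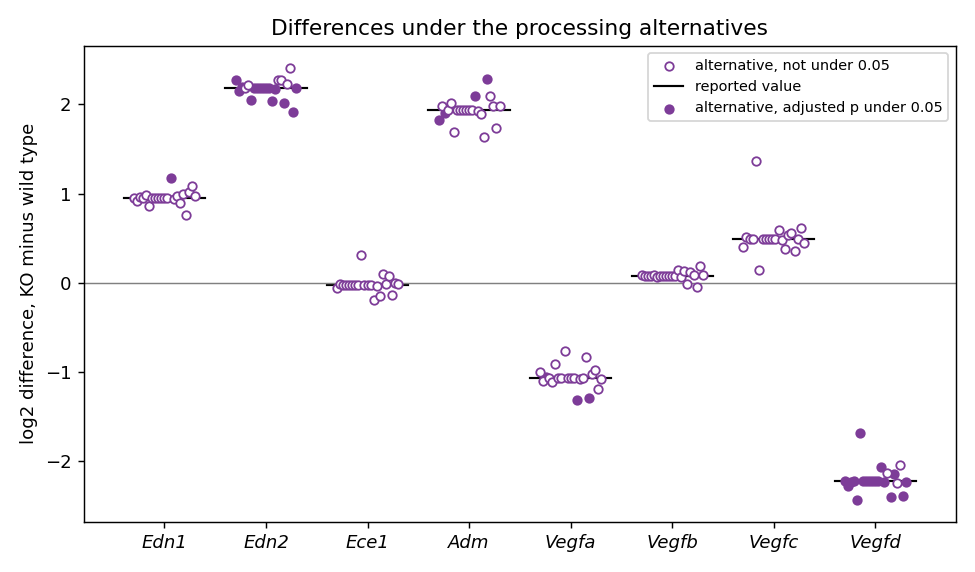
Log2 difference, KO minus wild type, of the 8 tested members under each processing alternative (y axis, 1 point per alternative) beside the reported value (black line). Filled points had an adjusted p under 0.05. Edn2 stays between 1.91 and 2.41, Vegfd between -2.44 and -1.69, and Ece1 and Vegfb scatter about 0.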

How the data were processed

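Biotin-labelled cRNA was made from total RNA for Illumina arrays, per the labels' protocols. The deposited values are linear-scale intensities, 1 per probe on each array. The authors' normalization method and software are not given in the sources used here. On each array 27.1% to 27.3% of probes were below 0, as after background subtraction, and all arrays shared the same minimum and maximum. A table of non-normalized signals was not used, because its 16 value columns match no label, although 2 of its 8 column names end in _2, as repeats would.

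An offset of 16 was added before log2. The background limit of 6.30 left 5% of the mirrored negative values above it, and probes above it on at least 3 arrays were kept. The brightest kept probe represented a gene. Symbols came from the platform annotation, with gene IDs matched to RefSeq. Close arrays (SD under 0.3) were averaged. Genotypes were compared with limma 3.58.1 in R 4.3.3, without a block, with Benjamini-Hochberg adjustment over 9881 genes. The fit was tested on simulated data. Figures used matplotlib 3.10.9.

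The members, gene lists and averaging were chosen with earlier results of these data known. Named genes were all members, the 2 with the largest difference of each list where none was called, and the 5 genes most correlated with Edn2 and with Vegfd. Promoters are from RefSeq, build GRCm38.p6. The number of arrays limits the precision. Same-numbered KO and wild-type replicates were not paired, as their deviations from the genotype means correlated at 0.06, 0.02 and -0.35. These values cover same-numbered pairs only.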

Additional observations from a re-analysis of the deposited data

How the results depend on the processing

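The number of genes called was 70 and became 261 with arrays averaged as labelled, 277 with all 8 arrays and close pairs as a random block, 21 with the replicate block, 16 with an offset of 4, 46 with centring on 64 ribosomal genes, and 930 with array weights. Leaving out 1 replicate gave 5 to 261. Members called were 2, and 4 with the random block, 5 with array weights, 1 with the replicate block (Vegfd) and 1 with an offset of 4 (Vegfd), and 0 to 4 without single replicates. The listed other genes called were 0, and became 2 as labelled, 4 with the random block and 10 with array weights. They became 1 with probes above the limit on all 8 arrays, 1 with every probe on its own, and 0 to 4 without single replicates. Of all genes tested, 2.64% were called as labelled, 2.80% with the random block, 0.21% with the replicate block and 0.16% with an offset of 4. With array weights 9.41% were called, and without single replicates 0.0506% to 2.64%. With probes above the limit on all 8 arrays 0.979% of 7763 genes were called. With every probe on its own 0.796% of 13564 probes were called. Edn2 kept its call in 15 and Vegfd in 18 of 21 alternatives, and both kept their direction in all 21. Both genes were known to pass in this contrast and the alternatives reuse the same arrays, so these counts are a description. Leaving out KO array 1.1, chosen after seeing the data, kept 2 members called. Ece1 turned to 0.31 as the mean of its probes, to 0.10 without KO replicate 2, 0.08 without wild-type replicate 1 and 0.00042 without wild-type replicate 3, and ran from -0.15 to 0.10 without single replicates. Vegfb turned to -0.016 without KO replicate 2 and -0.044 without wild-type replicate 2, and ran from -0.044 to 0.19 without single replicates. The Vegfc difference ran from 0.14 with an offset of 64 to 1.36 with an offset of 4. The labels do not say whether same-numbered replicates share more than a number, and the replicate block uses up degrees of freedom. The cause of the other changes was not tested.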

Other observations

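KO replicate 3, with its close partner array, lay apart from KO replicates 1 and 2 in several of these genes. It had the highest Edn2 of the KO replicates, at 2243 against 1562 and 1548, and the highest Vegfa, at 264 against 188 and 132.5. It had the lowest Adm, at 402 against 710 and 1025. Flt1 read 14.5 and 15.4 on KO arrays 3 and 1.1 against 139 and 252 on KO arrays 1 and 2. Ccn1 read 229 and 255 there against 720 and 975. Adm2, a relative of Adm, was above background on 0 of 4 KO arrays, at 0 to 4.5, and on 3 of 4 wild-type arrays, at 14.9 to 24.6. Wild-type array 3 read 1.8, within the KO values. Of the wild-type arrays above background, 1 and 1.1 are a close pair counted as 1 replicate. Set against the background limit, the wild-type mean was 1.25-fold higher, a value that leaves out the spread of the replicates. The log2 difference of -0.59 had a 95% interval of -1.28 to 0.10, which includes no difference. Adm2 did not pass limma's test (adjusted p = 0.363). These patterns were noticed in the data, and no cause was tested.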
